A study of Mus musculus with 30 samples.

Results

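Brown adipose tissue (BAT) and inguinal white adipose tissue (iWAT) of cold-exposed mice were compared across all genes by setting the 5 BAT libraries labelled 6 °C for 6 h against the 5 iWAT libraries of the same label. These are 10 of the 30 libraries of the series, which also sampled both depots at 22 °C and after 24 h at 6 °C with 5 libraries each. The mice of both groups were male C57BL/6J, for which the labels name no allele, 7 to 8 weeks old, kept 5 to a cage with free food and water. The unexposed groups are labelled 22 °C, although the stated housing temperature was 24 ± 2 °C. Polyadenylated RNA of whole depots was sequenced in bulk, so fewer cells of a type and less RNA per cell cannot be told apart. Whether the replicates were separate mice, and whether equal replicate numbers in the 2 depots mean 1 mouse, is not stated. Every p-value therefore measures the spread between these samples, which may be technical.

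Brown adipocytes hold many small lipid droplets and dense mitochondria, and the inner-membrane protein UCP1 lets protons re-enter the mitochondrial matrix without making ATP, which releases the energy of fuel oxidation as heat. In the cold, sympathetic nerves release noradrenaline onto beta-adrenergic receptors of fat cells, cAMP rises, lipolysis supplies fatty acids and thermogenic genes are transcribed. White adipocytes store triglyceride in a single large droplet and secrete hormones such as leptin and adiponectin, and the inguinal depot of the mouse is known for forming beige adipocytes, UCP1-bearing cells that arise among white ones during cold exposure.

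Counts assigned to genes summed to between 30138169 and 40986043 per BAT library and between 27340046 and 36531522 per iWAT library. The correlation of log2 CPM (counts per 1000000 assigned, with TMM-scaled library sizes) across genes was 0.981 to 0.995 between BAT libraries, 0.977 to 0.99 between iWAT libraries and 0.895 to 0.946 between depots. Some libraries stood apart within their group, and some of the results that rest on them are given with and without them. Skeletal muscle transcripts were unequal among the BAT libraries, where the summed level of the muscle markers ran from 91.1 to 1942 CPM and was highest in replicate 2, against 54.3 to 96 CPM in iWAT. The summed level of 25 thermogenic adipocyte genes was 28161 to 36459 CPM in BAT and 1626 to 8508 CPM in iWAT, where replicates 4 and 5 were highest. The depot labels fitted position markers, since Zic1 had counts in every BAT library and nearly none in iWAT, and Hoxc10 had none in BAT. Muscle transcripts were uneven at the other times too. At 22 °C the summed muscle markers ran from 375 to 10566 CPM in BAT and from 53.1 to 4304 CPM in iWAT, highest in iWAT replicate 2. After 24 h they ran from 54.7 to 5498 CPM in BAT and from 41.8 to 63 CPM in iWAT. The part of muscle or of beige cells in the results was not tested.

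Of 14089 genes tested by edgeR's quasi-likelihood F test, 9330 differed between BAT and iWAT after 6 h at a Benjamini-Hochberg adjusted p under 0.05, which is 66.2% of the genes tested. The differences were nearly even in direction, with 4586 genes higher in BAT (32.6%) and 4744 lower (33.7%), and a median log2 fold change (BAT over iWAT) of -0.02. At a size of at least 2-fold they leaned toward iWAT, with 1565 genes higher in BAT (11.1%) and 2491 lower (17.7%). The BAT libraries lay wholly above the iWAT libraries for 3232 genes (22.9%) and wholly below them for 3208 (22.8%). The even split depends on how libraries are scaled: upper-quartile factors gave 3755 genes higher and 5634 lower with a median of -0.16, and limma on log2(FPKM + 1) gave 2350 and 7276 with a median of -0.19. Counts of list members called higher or lower in BAT stand beside this background of 32.6% and 33.7% of all genes tested. Some lists hold genes with no count in 1 depot, and their medians are the same when those genes are set at their limit of detection.

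**Figure D1:**
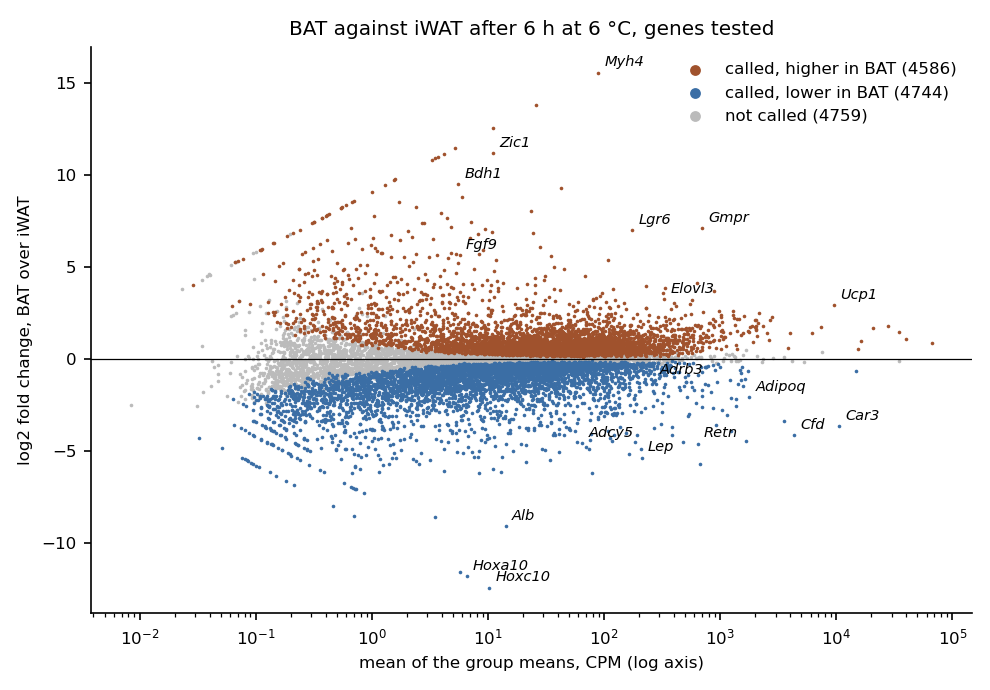
Log2 fold change of BAT over iWAT after 6 h at 6 °C (vertical axis) against the mean of both group means in CPM (horizontal, log axis) for the 14089 genes tested. Brown points are the 4586 genes called higher in BAT, blue points the 4744 called lower and grey points those not called; Myh4, Zic1 and Gmpr lie far toward BAT, and Hoxc10 and Hoxa10 far toward iWAT.

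The genes that make brown adipocytes thermogenic were higher in BAT almost throughout. Of 25 listed, all tested, 23 were higher, 1 was lower and 1, Irf4, was not called, against 32.6% higher and 33.7% lower among all genes. Their median log2 fold change was 2.52. Ucp1 (ENSMUSG00000031710) measured 21231, 14644, 15607, 18028 and 15074 CPM in BAT, against 599, 1711, 452, 4014 and 4402 CPM in iWAT. No iWAT library reached the lowest BAT library, although iWAT replicates 4 and 5 stood well above the other 3. The difference in Ucp1 was log2 2.92 ± 0.69, adjusted p = 0.0005, and it was 3.24 without iWAT replicate 4 and 3.32 without replicate 5. Dio2 (ENSMUSG00000007682), whose enzyme converts the thyroid prohormone T4 to active T3 inside the cell, measured 1483, 1544, 1694, 1891 and 1735 CPM in BAT, against 101, 182, 80.5, 488 and 500 CPM in iWAT. The same 2 iWAT libraries were the highest, and the depots again did not overlap (log2 2.63 ± 0.59, adjusted p = 0.00031). Ppargc1a, the coactivator that drives mitochondrial biogenesis, averaged 649 ± 131 CPM in BAT and 99 ± 71.9 CPM in iWAT (SD, n = 5 each; log2 2.71 ± 0.38, adjusted p = 4.3e-07). Elovl3, an elongase of very long chain fatty acids in brown fat, averaged 593 ± 92.1 CPM in BAT and 62.1 ± 60.7 CPM in iWAT (log2 3.26 ± 0.66, adjusted p = 9.9e-05). These genes shared the wide spread among iWAT libraries. Cidea, a lipid droplet protein of brown adipocytes, averaged 2159 ± 252 CPM in BAT and 407 ± 252 CPM in iWAT (log2 2.41 ± 0.41). Slc27a2, a fatty acid transport protein with acyl-CoA synthetase activity, averaged 623 ± 41.7 CPM in BAT and 43.9 ± 37.7 CPM in iWAT (log2 3.83 ± 0.65).

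Prdm16, a transcriptional coregulator of brown adipocyte fate, averaged 42.6 ± 6.91 CPM in BAT and 18.9 ± 5.11 CPM in iWAT (log2 1.18 ± 0.17, adjusted p = 5.3e-07). Ebf2, a factor that marks brown and beige precursors, averaged 73.7 ± 8.94 CPM in BAT and 40.9 ± 4.89 CPM in iWAT (log2 0.85 ± 0.11, adjusted p = 2e-07). Both had no overlap between depots. Pparg, the master regulator of fat cell formation, differed less, at 329 ± 11 CPM in BAT and 222 ± 31.1 CPM in iWAT (log2 0.57 ± 0.09), and its difference was not called on log2(FPKM + 1). The beta-3 adrenergic receptor gene Adrb3 (ENSMUSG00000031489), through which noradrenaline acts on mouse fat cells, went the other way. It measured 162, 138, 155, 169 and 192 CPM in BAT, against 376, 397, 372, 307 and 395 CPM in iWAT. Every BAT library was below every iWAT library (log2 -1.18 ± 0.14, adjusted p = 1.6e-08), and Adrb3 was the 1 thermogenic list member that was lower.

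**Figure D2:**
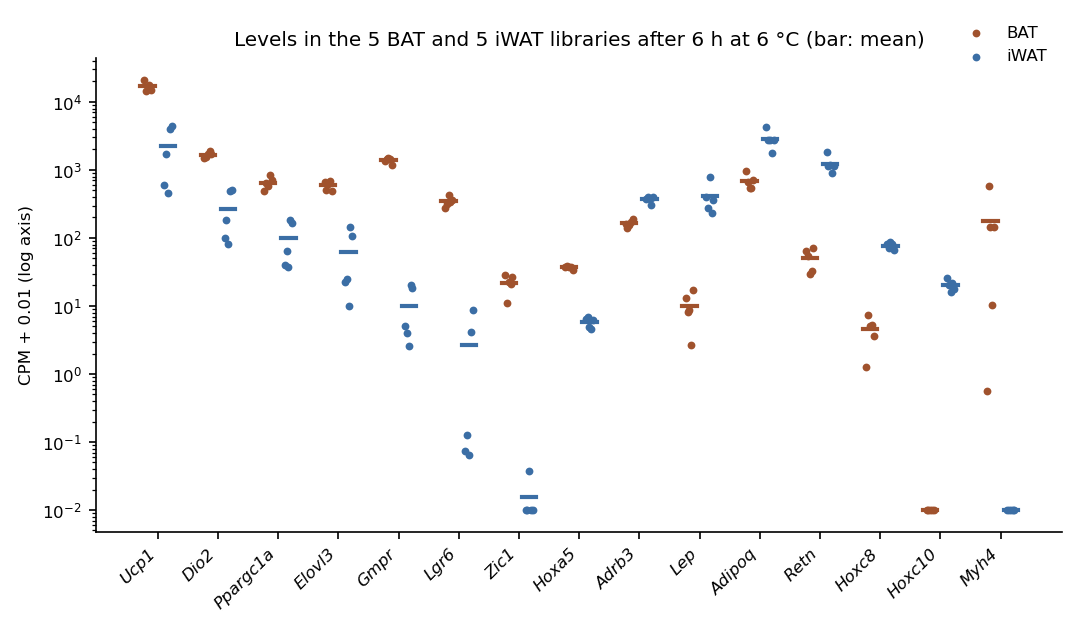
Level of 15 genes in each of the 5 BAT (brown points, left) and 5 iWAT libraries (blue points, right) after 6 h at 6 °C, in CPM with a small constant added so that zeros sit at the foot of the log axis; bars are group means. Ucp1, Dio2, Ppargc1a and Elovl3 spread widely among the iWAT libraries and narrowly among the BAT libraries, while Adrb3, Lep, Adipoq, Retn and the Hoxc genes lie lower in BAT.

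Some promoters carry the cAMP response element, the palindrome bound by CREB when noradrenaline raises cAMP, and a few are printed because cAMP is the signal that cold sends to fat cells. The element searched was TGACGTCA, which reads the same on both strands. Within 250 bases before the transcription start (RefSeq, GRCm38.p6, whereas the deposited counts were made on GRCm39), it was found in 1.77% of 27025 promoters and in 311 of 10927 promoters of tested genes (2.85%). It was found in 35 of 1172 promoters of genes at least 2-fold higher in BAT (2.99%) and in 27 of 1839 of genes at least 2-fold lower (1.47%). The share among genes higher in BAT was close to that of all tested genes. Another 4 elements were searched on both strands. The estrogen-related receptor element TCAAGGTCA was in 9 of the 1172 promoters of genes higher in BAT (0.768%), 5 of the 1839 of genes lower (0.272%) and 0.293% of tested genes. The NRF1 core was in 0.683%, 1.25% and 1.71% of these, the EBF palindrome in 1.37%, 1.25% and 1.1%, and the PPAR direct repeat, which shares AGGTCA with the estrogen-related receptor element, in 0.0853%, 0.0544% and 0.0458%. These shares are descriptions and were not tested. The cAMP response element is in capitals in Dio2, in Cycs (cytochrome c), in Ogdh (a subunit of the 2-oxoglutarate dehydrogenase of the tricarboxylic acid cycle), in Uqcrfs1 (the iron-sulphur protein of complex III) and in Pnpla3 (a lipid droplet hydrolase), which was lower in BAT. Cycs, Uqcrfs1 and Pnpla3 were chosen for display after their values were seen. The 250 bases before the Ucp1 start hold no exact match and are shown for comparison. A match in these letters is a description and not a bound site.
Dio2 chr12:90739039-90739288 (- strand): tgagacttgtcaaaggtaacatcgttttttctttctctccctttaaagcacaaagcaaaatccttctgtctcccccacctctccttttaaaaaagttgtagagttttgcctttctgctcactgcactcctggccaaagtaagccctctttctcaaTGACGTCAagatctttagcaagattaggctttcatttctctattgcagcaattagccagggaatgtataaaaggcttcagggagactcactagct
Cycs chr6:50566570-50566819 (- strand): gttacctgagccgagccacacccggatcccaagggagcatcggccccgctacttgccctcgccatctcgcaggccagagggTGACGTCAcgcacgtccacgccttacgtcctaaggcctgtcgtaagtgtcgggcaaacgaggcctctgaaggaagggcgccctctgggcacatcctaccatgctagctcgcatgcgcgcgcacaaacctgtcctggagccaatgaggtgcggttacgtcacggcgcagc
Ogdh chr11:6291347-6291596 (+ strand): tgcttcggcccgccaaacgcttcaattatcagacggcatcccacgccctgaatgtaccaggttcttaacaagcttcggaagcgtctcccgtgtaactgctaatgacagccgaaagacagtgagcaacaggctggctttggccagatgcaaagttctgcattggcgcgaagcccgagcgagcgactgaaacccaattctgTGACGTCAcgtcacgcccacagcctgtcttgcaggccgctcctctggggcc
Uqcrfs1 chr13:30545317-30545566 (- strand): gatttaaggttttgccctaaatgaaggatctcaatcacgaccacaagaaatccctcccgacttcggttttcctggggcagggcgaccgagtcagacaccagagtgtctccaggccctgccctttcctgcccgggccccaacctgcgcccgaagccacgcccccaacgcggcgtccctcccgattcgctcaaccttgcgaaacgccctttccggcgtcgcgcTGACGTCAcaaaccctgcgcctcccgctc
Pnpla3 chr15:84167566-84167815 (+ strand): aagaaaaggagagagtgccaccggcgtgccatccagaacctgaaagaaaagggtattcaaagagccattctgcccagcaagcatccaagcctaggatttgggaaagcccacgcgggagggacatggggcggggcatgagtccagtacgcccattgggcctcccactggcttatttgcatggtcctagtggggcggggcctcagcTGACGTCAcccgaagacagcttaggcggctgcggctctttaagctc
Ucp1 chr8:83290098-83290347 (+ strand): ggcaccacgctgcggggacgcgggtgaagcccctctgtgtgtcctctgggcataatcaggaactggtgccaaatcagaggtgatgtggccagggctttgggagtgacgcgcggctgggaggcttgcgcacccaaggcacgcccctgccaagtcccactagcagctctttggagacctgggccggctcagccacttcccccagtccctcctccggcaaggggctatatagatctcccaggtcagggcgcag

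The levels of these genes went in both directions. Cycs averaged 2157 ± 260 CPM in BAT and 863 ± 257 CPM in iWAT (log2 1.32 ± 0.20, adjusted p = 1.4e-06). Uqcrfs1 averaged 1222 ± 87.2 CPM in BAT and 490 ± 112 CPM in iWAT (log2 1.32 ± 0.17, adjusted p = 1.3e-07). Ogdh averaged 2699 ± 244 CPM in BAT and 535 ± 183 CPM in iWAT (log2 2.34 ± 0.16, adjusted p = 5.2e-13). Pnpla3, with the same bases, stood on the iWAT side and averaged 75.8 ± 14.3 CPM in BAT and 297 ± 113 CPM in iWAT (log2 -1.97 ± 0.25, adjusted p = 8.1e-08).

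Transcription factors that record where a tissue lies in the body stood on both sides, and Zic1 was nearly confined to BAT. Zic1 (ENSMUSG00000032368), a zinc finger factor of dorsal mesoderm and a classical mark of interscapular brown fat, measured 28.6, 11.2, 22.8, 21 and 26.8 CPM in BAT, against 0, 0, 0.0276, 0 and 0 CPM in iWAT. The BAT libraries held 3156 Zic1 counts in all, against 1 in iWAT, a ratio of 3768 with an exact 95% interval of 676 to 148860 that covers counting error only. Lhx8, a LIM homeobox factor of brown fat, averaged 5.47 ± 1.85 CPM in BAT and 2.3 ± 0.753 CPM in iWAT (log2 1.25 ± 0.37, adjusted p = 0.0046). Tbx5, a T-box factor of the forelimb and heart, averaged 6.01 ± 0.838 CPM in BAT and 1.04 ± 0.358 CPM in iWAT (log2 2.54 ± 0.30, adjusted p = 2.8e-08). Others stood on the iWAT side. Shox2, a limb homeobox gene, averaged 1.72 ± 1.24 CPM in BAT and 27.8 ± 6.76 CPM in iWAT (log2 -4.00 ± 0.45, adjusted p = 8.9e-09). Tbx15, a T-box factor of limb and skin development, averaged 5.86 ± 2.09 CPM in BAT and 15.7 ± 3.32 CPM in iWAT (log2 -1.42 ± 0.33, adjusted p = 0.00045). Of 19 tested regulators of brown fat and position, 8 were higher in BAT and 7 lower, with a median of 0.06 that turned to -0.07 with upper-quartile factors and -0.11 on log2(FPKM + 1). As shares of the list these are 42.1% and 36.8%, against 32.6% and 33.7% of all genes tested.

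The Hox genes, whose order along each chromosomal cluster follows the order of body positions from head to tail, differed in both directions. All 39 mouse Hox genes were looked up, 26 passed the filter on low counts, and of these 5 were higher in BAT, 15 lower and 6 not called (median -0.93). The 5 higher in BAT all have paralogue numbers from 2 to 5. They were Hoxa2 (log2 1.51), Hoxa4 (1.83), Hoxa5 (2.66), Hoxc4 (2.39) and Hoxc5 (1.72). Hoxa5 measured 37.2, 39.1, 37, 37.1 and 33.7 CPM in BAT, against 6.53, 6.88, 4.91, 4.62 and 6.17 CPM in iWAT, and Hoxc4 averaged 34.7 ± 2.41 CPM in BAT and 6.62 ± 0.857 CPM in iWAT. Neither overlapped between depots. At the tail end, Hoxc10 was at 0 in every BAT library and averaged 20.5 ± 3.77 CPM in iWAT. Taking 3 counts over the 5 BAT libraries as the limit of detection, Hoxc10 was at least 962-fold lower in BAT, Hoxa10 at least 632-fold lower and Hoxc9 at least 545-fold lower. Split at paralogue number 6, a division chosen after the values were seen, the 14 tested genes from 6 upward held 12 lower in BAT and none higher, and the 12 below it held 5 higher and 3 lower. Some of the lower genes differed by less than Hoxc10, Hoxa10 and Hoxc9. Hoxa9 averaged 0.987 ± 0.286 CPM in BAT and 19.6 ± 6.32 CPM in iWAT (log2 -4.31 ± 0.42), Hoxc8 averaged 4.53 ± 2.26 CPM in BAT and 77 ± 8.45 CPM in iWAT (log2 -4.08 ± 0.33), and Hoxa7 averaged 10.3 ± 3.15 CPM in BAT and 29.7 ± 4.08 CPM in iWAT (log2 -1.53 ± 0.22). Within the Hoxc cluster the depots changed order between neighbours, since Hoxc5 was higher in BAT and Hoxc6 (15.4 ± 0.883 CPM in BAT and 24.4 ± 3.22 CPM in iWAT, log2 -0.66 ± 0.14) was lower. Genes with low paralogue numbers were not uniform, as Hoxb5 was lower in BAT (log2 -1.69 ± 0.27) and so was Hoxd4 (-1.28 ± 0.34). Of the 13 untested genes, Hoxa13, Hoxb13, Hoxc13, Hoxd13, Hoxd11, Hoxd12 and Hoxa11 had no count in any of the 10 libraries, and the others averaged at most 0.146 CPM in a group.

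Markers of white and beige adipocytes lay on the iWAT side. Of 22 tested, 17 were lower in BAT, 3 higher and 2 not called, with a median of -2.81 (-1.81 on log2(FPKM + 1)). Lep (ENSMUSG00000059201), the hormone that reports fat stores to the brain, measured 13, 8.11, 8.66, 2.69 and 17.3 CPM in BAT, against 403, 272, 782, 234 and 364 CPM in iWAT. The depots did not overlap (log2 -5.36 ± 0.48, adjusted p = 1.4e-10). Retn, which encodes the mouse adipocyte hormone resistin, averaged 50.6 ± 18.9 CPM in BAT and 1233 ± 353 CPM in iWAT (log2 -4.61 ± 0.28, adjusted p = 7.5e-14). Nnat, a small imprinted membrane protein, averaged 25.2 ± 17.7 CPM in BAT and 1302 ± 495 CPM in iWAT (log2 -5.69 ± 0.59, adjusted p = 2e-09). Some of them have been proposed as markers of beige cells. Of these, Tbx1 had 1 count in BAT and 253 in iWAT, a ratio of iWAT over BAT of 212 (exact 95% interval 37.7 to 8403, counting error only). Tmem26, a membrane protein, averaged 0.0825 ± 0.115 CPM in BAT and 0.463 ± 0.174 CPM in iWAT (log2 -2.50 ± 0.73). On the BAT side stood P2rx5, a purinergic receptor used as a marker of brown and beige cells, at 43 ± 5.41 CPM in BAT and 18.7 ± 2.87 CPM in iWAT (log2 1.21 ± 0.18, adjusted p = 9e-07).

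Secreted products of fat leaned the same way, with 13 of 27 tested lower in BAT, 7 higher and 7 not called (median -0.30, and -0.48 on log2(FPKM + 1)). Lep, Retn and Agt are also in the list of white and beige markers, so the lists are not independent. Adipoq, the gene of adiponectin, measured 953, 673, 544, 550 and 700 CPM in BAT, against 4288, 2782, 2789, 1774 and 2752 CPM in iWAT, and its depots did not overlap (log2 -2.07 ± 0.18, adjusted p = 4.6e-11). Cfd, the serine protease adipsin of the alternative complement pathway, averaged 462 ± 155 CPM in BAT and 8264 ± 3298 CPM in iWAT (log2 -4.16 ± 0.32, adjusted p = 6.2e-12). Fgf9, a fibroblast growth factor, was on the BAT side with 9.6, 9.21, 15, 8.95 and 13.1 CPM in BAT, against 0.0317, 0.0875, 0.221, 0.358 and 0.397 CPM in iWAT. The lowest BAT library exceeded the highest iWAT library (log2 5.63 ± 0.46, adjusted p = 1.7e-11). Car3, carbonic anhydrase 3, was the fourth most abundant transcript of iWAT at 1578 ± 662 CPM in BAT and 19611 ± 5914 CPM in iWAT (log2 -3.64 ± 0.27, adjusted p = 3.6e-12). The lipid carrier Fabp4, common to all adipocytes, differed less, at 11401 ± 758 CPM in BAT and 18141 ± 1298 CPM in iWAT (log2 -0.67 ± 0.10, adjusted p = 1.8e-06).

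Mitochondrial transcripts filled more of the BAT libraries. The 13 protein-coding genes of mitochondrial DNA took 25.2 ± 2.4% of assigned counts in BAT and 14.2 ± 1.87% in iWAT (SD, n = 5 each), and the groups did not overlap (22.7 to 28.7% and 11.6 to 15.9%). All 13 were called higher in BAT (median log2 1.65), from a log2 difference of 0.84 for mt-Co1 to one of 2.38 for mt-Atp8, and mt-Co1 was not called on log2(FPKM + 1) (0.46). Nuclear genes of the respiratory chain and ATP synthase took 3.74 ± 0.265% of counts in BAT and 2.21 ± 0.317% in iWAT. Ucp1 alone took 1.4 ± 0.145% in BAT and 0.24 ± 0.199% in iWAT. Complex I genes were higher in 34 of 36 cases and lower in none (median 0.90), and genes of complexes II to IV and cytochrome c in 23 of 24 and none (median 1.05). On log2(FPKM + 1) these medians were 0.51 and 0.66, with 30 and 21 genes higher and 1 and 0 lower. Ndufv1, the NADH-binding subunit of complex I, averaged 772 ± 79.2 CPM in BAT and 244 ± 46.5 CPM in iWAT (log2 1.66 ± 0.13, adjusted p = 1.8e-11). Uqcrc1, a core subunit of complex III, averaged 1355 ± 171 CPM in BAT and 380 ± 92.4 CPM in iWAT (log2 1.83 ± 0.15, adjusted p = 2.4e-11).

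ATP synthase, which UCP1 bypasses, was mixed. Of 16 subunit genes, 12 were higher in BAT and 4 lower (median 0.76, and 0.37 with 8 higher and 4 lower on log2(FPKM + 1)). The beta and alpha subunits Atp5f1b (log2 1.40 ± 0.13) and Atp5f1a (1.39 ± 0.13) were among the higher ones. Atp5mc1, 1 of the genes that encode the proton-carrying c subunit of the rotor, measured 6.28, 9.21, 6.48, 4.94 and 6.26 CPM in BAT, against 42.2, 26.9, 24.7, 21.2 and 24.5 CPM in iWAT. Every BAT library was below every iWAT library (log2 -2.07 ± 0.33, adjusted p = 4.3e-06). The other lower ones, Atp5mc3 (c subunit), Atp5pf and the inhibitory factor Atp5if1, had log2 differences of -1.14, -0.79 and -0.97. Atp5mc3, Atp5pf and Atp5if1 were named after their values were seen.

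All 18 genes of the tricarboxylic acid cycle were higher in BAT, with a median of 1.58. Suclg1, a subunit of succinyl-CoA synthetase, averaged 1218 ± 87.1 CPM in BAT and 207 ± 76.1 CPM in iWAT (log2 2.56 ± 0.19, adjusted p = 1.9e-12). Mitochondrial ribosomal protein genes were higher in 21 of 26 cases and lower in none, by smaller amounts (median 0.59). On log2(FPKM + 1) they were 13 higher and 4 lower, with a median of 0.18. Cytosolic ribosomal protein genes showed the reverse, with 21 of 28 lower and a median of -0.40 (26 lower and -0.78 on log2(FPKM + 1)). The 1 higher gene was Rps2 (0.34 ± 0.11), which was -0.05 on log2(FPKM + 1) and lost its call with upper-quartile factors (0.21). Rps4x averaged 194 ± 37.3 CPM in BAT and 340 ± 47.1 CPM in iWAT (log2 -0.81 ± 0.11, adjusted p = 4.5e-07). Many ribosomal protein genes have processed pseudogenes of near-identical sequence, so their counts are uncertain where reads match both the gene and a pseudogene.

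**Figure D3:**
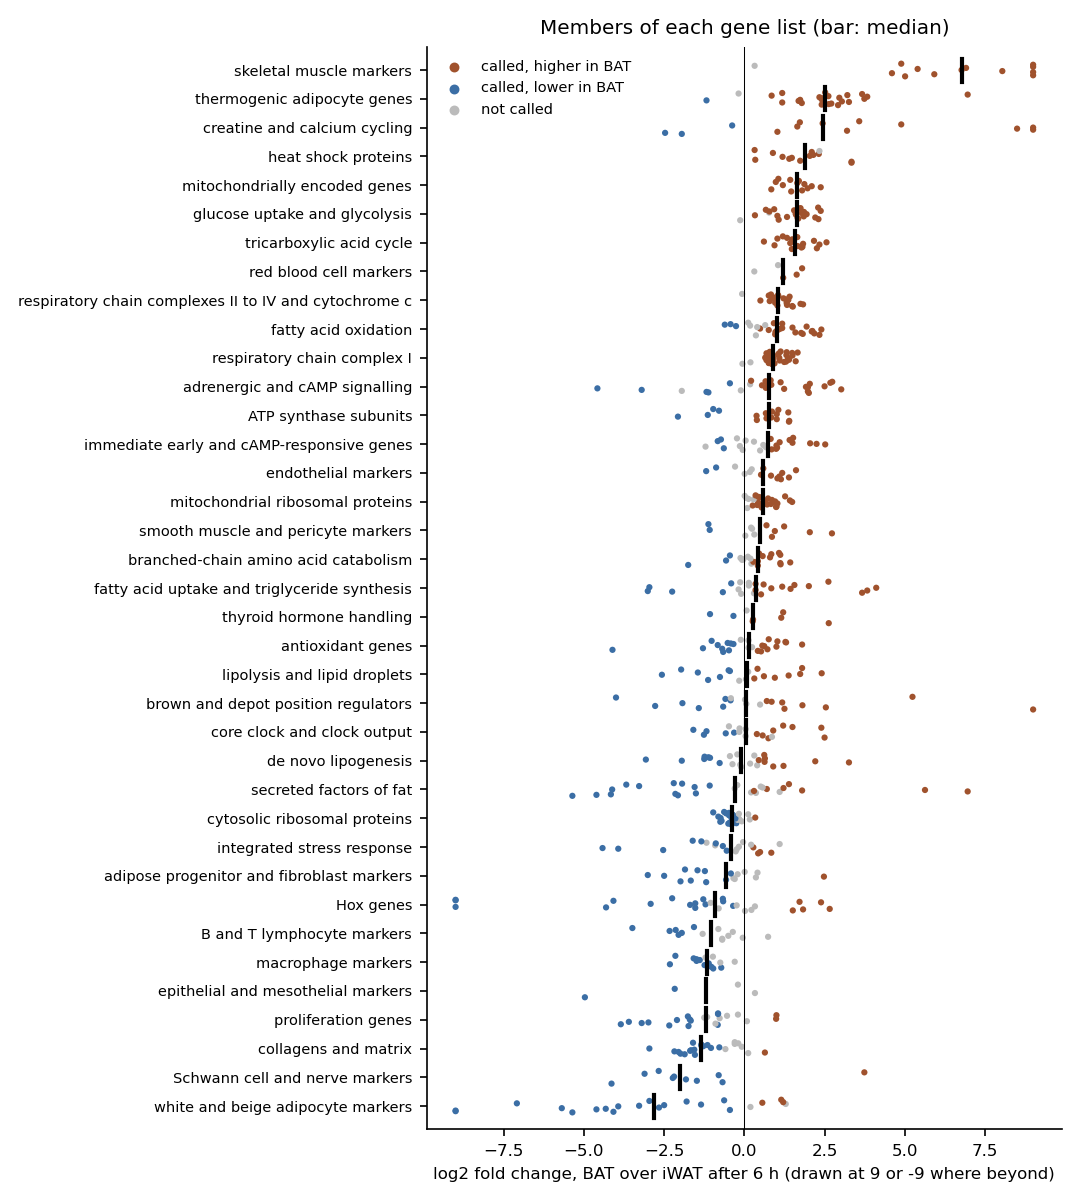
Log2 fold change of BAT over iWAT after 6 h for the tested members of the 37 gene lists (1 point per gene, brown for called higher in BAT, blue for called lower, grey for not called), ordered by list median (black bar) and drawn at 9 or -9 where beyond. The tricarboxylic acid cycle, glycolysis and mitochondrially encoded genes lie wholly or nearly wholly on the BAT side, and white adipocyte, macrophage and Schwann cell markers mostly on the iWAT side.

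Fatty acid oxidation genes were higher in BAT in 19 of 27 cases, lower in 3 and not called in 5 (median 1.02, and 0.63 on log2(FPKM + 1)). Acaa2, the thiolase that ends each round of mitochondrial beta-oxidation, averaged 1701 ± 239 CPM in BAT and 323 ± 128 CPM in iWAT (log2 2.40 ± 0.22, adjusted p = 2.1e-10). Acadvl, the dehydrogenase for very long chains, averaged 1409 ± 113 CPM in BAT and 311 ± 136 CPM in iWAT (log2 2.18 ± 0.22, adjusted p = 1.3e-09). Of the 3 lower ones, Acaa1a and Acaa1b, thiolases of peroxisomes, differed by -0.61 and -0.43 on the log2 scale. Acaa1b was named after its values were seen.

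Fatty acid uptake and triglyceride synthesis divided by family member, with 13 of 24 higher, 5 lower and 6 not called (median 0.35, which was -0.03 on log2(FPKM + 1)). Acsl5, an acyl-CoA synthetase, measured 1217, 915, 1465, 1117 and 1235 CPM in BAT, against 41.1, 35.8, 41.2, 155 and 72.7 CPM in iWAT, and its depots did not overlap (log2 4.11 ± 0.30, adjusted p = 2e-12). Slc27a1, the fatty acid transporter FATP1, was lower in BAT at 120 ± 22.1 CPM in BAT and 967 ± 194 CPM in iWAT (log2 -3.01 ± 0.17, adjusted p = 1.6e-14). Fabp3, the fatty acid binding protein of heart and brown fat, measured 1866, 1536, 1851, 1315 and 1659 CPM in BAT, against 20.6, 55.8, 22.2, 206 and 343 CPM in iWAT. The iWAT values of Fabp3 spanned more than those of BAT, with replicates 4 and 5 highest (log2 3.67 ± 0.80, adjusted p = 0.00023).

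Lipid droplet and lipolysis genes were divided as well, with 8 of 18 higher and 7 lower (median 0.08, which turned to -0.05 with upper-quartile factors and -0.31 on log2(FPKM + 1)). That is 44.4% and 38.9% of the list, against 32.6% and 33.7% of all genes tested. Plin5, a perilipin of oxidative tissues that ties droplets to mitochondria, averaged 210 ± 30.6 CPM in BAT and 62.9 ± 27.5 CPM in iWAT (log2 1.74 ± 0.28, adjusted p = 5.2e-06), whereas Plin4 averaged 392 ± 53.8 CPM in BAT and 2330 ± 589 CPM in iWAT (log2 -2.57 ± 0.16, adjusted p = 5.7e-14). Plin1, the main droplet coat of adipocytes, averaged 1124 ± 106 CPM in BAT and 1908 ± 241 CPM in iWAT (log2 -0.76 ± 0.09). Cidec, the partner of droplet fusion in white adipocytes, averaged 846 ± 75.7 CPM in BAT and 2317 ± 375 CPM in iWAT (log2 -1.45 ± 0.11, adjusted p = 6.1e-12). De novo lipogenesis genes were higher in 8 of 23 cases and lower in 7 (median -0.10, and -0.36 on log2(FPKM + 1)). These shares, 34.8% and 30.4%, are near the 32.6% and 33.7% of all genes tested. Elovl6, a fatty acid elongase, averaged 2165 ± 173 CPM in BAT and 468 ± 375 CPM in iWAT (log2 2.21 ± 0.32, adjusted p = 8.1e-07). Fads3, a member of the fatty acid desaturase family, averaged 25.5 ± 2.98 CPM in BAT and 215 ± 42.7 CPM in iWAT (log2 -3.07 ± 0.19, adjusted p = 8.4e-14). Scd1, the stearoyl-CoA desaturase that was among the most abundant transcripts of both depots, had overlapping values of 32912 ± 16135 CPM in BAT and 35939 ± 14111 CPM in iWAT and was not called (log2 -0.13 ± 0.23), although limma on log2(FPKM + 1) called it lower (-0.57). Its value was 0.15 without iWAT replicate 4, the highest library, and 0.02 without BAT replicate 3.

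Glucose uptake and glycolysis genes were higher in BAT in 22 of 24 cases and lower in none (median 1.64). Ldhb, the heart-type lactate dehydrogenase subunit, averaged 836 ± 88.3 CPM in BAT and 160 ± 57.3 CPM in iWAT (log2 2.38 ± 0.22, adjusted p = 3.5e-10). Hk2, the insulin-regulated hexokinase, averaged 818 ± 124 CPM in BAT and 256 ± 70.1 CPM in iWAT (log2 1.68 ± 0.16, adjusted p = 3.7e-10). Slc2a4, the insulin-regulated glucose transporter GLUT4, averaged 665 ± 79.1 CPM in BAT and 316 ± 47.4 CPM in iWAT (log2 1.07 ± 0.11, adjusted p = 1.3e-09). The enzymes of the glycerol phosphate shuttle were higher in BAT as well. Gpd1, which makes glycerol 3-phosphate in the cytosol, and mitochondrial Gpd2, which oxidises it back, differed by 1.75 ± 0.17 and 2.30 ± 0.24. Slc2a1, the basal transporter GLUT1, overlapped between depots with 6.37 ± 1.48 CPM in BAT and 6.96 ± 2.32 CPM in iWAT and was not called (log2 -0.13 ± 0.19), although limma on log2(FPKM + 1) called it lower (-0.32).

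Branched-chain amino acid catabolism genes were higher in 12 of 21 cases and lower in 3 (median 0.42, which was -0.00 on log2(FPKM + 1)). The first enzyme of the pathway was among the lower ones. Bcat2, the mitochondrial transaminase, averaged 93.6 ± 14.3 CPM in BAT and 314 ± 95 CPM in iWAT (log2 -1.75 ± 0.21, adjusted p = 4.6e-08). Bckdha, a subunit of the branched-chain keto acid dehydrogenase, averaged 135 ± 13.4 CPM in BAT and 61.9 ± 12.7 CPM in iWAT (log2 1.13 ± 0.12, adjusted p = 4.2e-09). Pcca, a subunit of propionyl-CoA carboxylase, averaged 344 ± 18.2 CPM in BAT and 158 ± 14.9 CPM in iWAT (log2 1.12 ± 0.07, adjusted p = 1.5e-13).

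Creatine and calcium cycling, which can spend ATP without net work, is described as a source of heat that does not need UCP1. Its genes were higher in 10 of 13 cases and lower in 3 (median 2.44, and 1.11 with 6 higher and 3 lower on log2(FPKM + 1)). Ckm, Atp2a1, Ckmt2 and Ryr1 are also muscle genes. Ckm had no count in iWAT and was higher in BAT by at least 11.61 on the log2 scale. Ckmt2 had 516 counts in BAT and 1 in iWAT, a ratio of 616 (exact 95% interval 110 to 24377, counting error only). Atp2a1 and Ryr1 differed by log2 9.27 and 4.89. Each of these 4 genes was highest in BAT replicate 2, the library richest in muscle transcripts. On log2(FPKM + 1), Ckm (2.92), Ckmt2 (1.12) and Ryr1 (0.50) were not called. Without BAT replicate 2, Ryr1 differed by 3.56 and was not called (adjusted p = 0.059). Ckb, the cytosolic brain-type creatine kinase, measured 148, 133, 169, 122 and 158 CPM in BAT, against 18.9, 15.8, 15.7, 9.14 and 19.7 CPM in iWAT, with BAT replicate 2 within the range of its group (log2 3.20 ± 0.21, adjusted p = 1.8e-13). Gamt, which makes creatine, was lower in BAT at 1.36 ± 0.64 CPM in BAT and 7.52 ± 3.04 CPM in iWAT (log2 -2.47 ± 0.37, adjusted p = 1.3e-06).

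Adrenergic and cAMP signalling genes were higher in BAT in 18 of 26 cases and lower in 5 (median 0.77, and 0.31 on log2(FPKM + 1)), with adenylyl cyclases, which make cAMP, on both sides. Adcy3 measured 565, 758, 883, 744 and 620 CPM in BAT, against 27.4, 103, 38.8, 161 and 109 CPM in iWAT, and its depots did not overlap (log2 3.02 ± 0.35, adjusted p = 1.5e-08). Adcy5 measured 4.12, 8.9, 2.86, 4.9 and 5.31 CPM in BAT, against 95.2, 180, 129, 134 and 87.4 CPM in iWAT, with every BAT library below every iWAT library (log2 -4.58 ± 0.35, adjusted p = 5.3e-12). Of 6 listed phosphodiesterases, which break cAMP down, 5 were higher in BAT and 1, Pde3b, was lower (log2 -0.45). Pde4d averaged 159 ± 9.11 CPM in BAT and 23.8 ± 10.6 CPM in iWAT (log2 2.74 ± 0.23, adjusted p = 2.4e-11). Pde4a, of the same family, averaged 101 ± 9.73 CPM in BAT and 15.8 ± 5.14 CPM in iWAT (log2 2.68 ± 0.15, adjusted p = 1.7e-14).

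Of 24 immediate early and cAMP-responsive genes, 12 were higher in BAT, 3 lower and 9 not called (median 0.74, and 0.28 on log2(FPKM + 1)). The orphan nuclear receptors Nr4a1, Nr4a2 and Nr4a3, which cAMP induces quickly, led them with differences of 2.52 ± 0.55, 2.25 ± 0.30 and 2.05 ± 0.42. Nr4a2 measured 42.1, 39.8, 53.7, 43 and 42 CPM in BAT, against 4.56, 6.27, 5.05, 18.3 and 12.3 CPM in iWAT, and no libraries overlapped.

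Heat shock proteins were higher in BAT in 13 of 14 cases and lower in none (median 1.89, and 1.24 on log2(FPKM + 1)). Hsph1, a co-chaperone of HSP70, averaged 231 ± 29.5 CPM in BAT and 46 ± 15.9 CPM in iWAT (log2 2.32 ± 0.33, adjusted p = 6e-07). The inducible HSP70 gene Hspa1b measured 41.2, 21.2, 5.66, 21 and 12.9 CPM in BAT, against 1.55, 2.62, 1.55, 2.08 and 2.23 CPM in iWAT. The depots did not overlap, although the BAT libraries of Hspa1b spread widely (log2 3.34 ± 0.69, adjusted p = 0.00012). Hspa1a is a near-identical neighbour of Hspa1b, so reads of the pair can be confused. Of 20 genes of the integrated stress response, 4 were higher in BAT, 8 lower and 8 not called (median -0.41, and 0.25 at 22 °C). The lower ones were 40% of the list, near the 33.7% of all genes tested. Phgdh, the first enzyme of serine synthesis, averaged 6.76 ± 2.73 CPM in BAT and 145 ± 35 CPM in iWAT (log2 -4.42 ± 0.33). Psat1, the enzyme after it, averaged 6.87 ± 2.37 CPM in BAT and 105 ± 16.9 CPM in iWAT (log2 -3.93 ± 0.28). Among antioxidant genes, 11 of 25 were higher and 10 lower (median 0.13, which turned to -0.00 with upper-quartile factors and -0.27 on log2(FPKM + 1)). That is 44% and 40% of the list, against 32.6% and 33.7% of all genes tested. The mitochondrial members Sod2 (984 ± 72.1 CPM in BAT and 282 ± 73.9 CPM in iWAT, log2 1.80 ± 0.15) and Txn2 (log2 1.30 ± 0.14) were higher in BAT, and Gsta3, a glutathione transferase, was lower (3.97 ± 1.68 CPM in BAT and 68.7 ± 23.5 CPM in iWAT, log2 -4.11 ± 0.31).

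Clock genes differed in both directions. Of 19 tested, 8 were higher in BAT and 5 lower (median 0.04, which turned to -0.09 with upper-quartile factors and -0.32 on log2(FPKM + 1)). As shares of the list these are 42.1% and 26.3%, against 32.6% and 33.7% of all genes tested. Bmal1, the positive arm of the circadian loop, measured 14.9, 11.7, 7.35, 12.1 and 10.8 CPM in BAT, against 1.74, 1.05, 1.49, 2.01 and 3.69 CPM in iWAT, and no libraries overlapped (log2 2.50 ± 0.30, adjusted p = 3e-08). Dbp, an output gene that BMAL1 and CLOCK activate, measured 19, 21.6, 21.7, 24.9 and 22.5 CPM in BAT, against 53.3, 75.1, 72.3, 74 and 56.5 CPM in iWAT, with every BAT library lower (log2 -1.59 ± 0.12, adjusted p = 6.5e-12). Nfil3, a repressor of the same D-box sites that DBP activates, averaged 32.5 ± 9.73 CPM in BAT and 6.14 ± 3.56 CPM in iWAT (log2 2.40 ± 0.28, adjusted p = 1.5e-08). The hour of day at which each depot was taken is not given in the sources used here, and the part of collection time in these values was not tested. Thyroid hormone handling genes were higher in 5 of 8 cases and lower in 2 (median 0.27, -0.10 on log2(FPKM + 1)), and Dio2 was among the higher ones.

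Markers of other cell types differed too, and their part in the other results was not tested. Macrophage markers were lower in BAT in 12 of 16 cases and higher in none (median -1.16), with a summed level of 165 to 248 CPM in BAT and 330 to 676 CPM in iWAT. C1qc, a complement C1q chain made by macrophages, averaged 10.8 ± 3.09 CPM in BAT and 30.3 ± 9.84 CPM in iWAT (log2 -1.49 ± 0.29, adjusted p = 5.2e-05). Collagen and other matrix genes were lower in 16 of 23 cases and higher in 1 (median -1.34), summing to 2737 to 3823 CPM in BAT and 5902 to 8318 CPM in iWAT. Col5a2, a fibrillar collagen, averaged 29.1 ± 2.92 CPM in BAT and 132 ± 18.2 CPM in iWAT (log2 -2.18 ± 0.12). The higher one was Col4a2, a basement membrane collagen, at 540 ± 97.2 CPM in BAT and 345 ± 36.8 CPM in iWAT (log2 0.64 ± 0.15, adjusted p = 0.00043), and it was not called on log2(FPKM + 1). Progenitor and fibroblast markers were lower in 10 of 17 and higher in 1 (median -0.57), with sums of 380 to 469 CPM in BAT and 436 to 812 CPM in iWAT. Cd55, a complement regulator that marks early progenitors, averaged 7.05 ± 1.14 CPM in BAT and 39.8 ± 3.94 CPM in iWAT (log2 -2.50 ± 0.17).

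Endothelial markers were higher in 9 of 15 and lower in 2 (median 0.59, and 0.17 on log2(FPKM + 1)), and their sum was 1197 to 1508 CPM in BAT and 606 to 812 CPM in iWAT. Eng, the endothelial co-receptor endoglin, averaged 184 ± 17.8 CPM in BAT and 60.5 ± 9.29 CPM in iWAT (log2 1.61 ± 0.13, adjusted p = 2.2e-11), whereas the tight junction gene Cldn5 was lower in BAT at 8.94 ± 1.87 CPM in BAT and 20.4 ± 9.05 CPM in iWAT (log2 -1.19 ± 0.28, adjusted p = 0.00043). Schwann cell markers were lower in 9 of 10 cases, with Pmp22 at 48.7 ± 11.3 CPM in BAT and 172 ± 60.8 CPM in iWAT (log2 -1.82 ± 0.19, adjusted p = 3e-09). The exception was S100b, a calcium-binding protein of glia that brown adipocytes also secrete, at 77.8 ± 8.84 CPM in BAT and 5.87 ± 2.7 CPM in iWAT (log2 3.74 ± 0.24, adjusted p = 1.8e-13). Red blood cell markers were higher in 3 of 5 cases and lower in none, and Hba-a1 averaged 167 ± 38.4 CPM in BAT and 54 ± 25.8 CPM in iWAT (log2 1.63 ± 0.22, adjusted p = 2e-07). Hba-a1 and Hba-a2 are near-identical copies, so the share of each is uncertain. B and T lymphocyte markers were lower in 6 of 14 cases and higher in none, and their sum was 1.82 to 5.14 CPM in BAT and 5.02 to 11.8 CPM in iWAT. Proliferation genes were lower in 13 of 22 cases and higher in 2 (median -1.21, and -0.15 on log2(FPKM + 1)). Smooth muscle and pericyte markers were higher in 6 of 12 and lower in 2 (median 0.50, and 0.10 on log2(FPKM + 1)), and epithelial markers were lower in 2 of 4.

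Skeletal muscle genes were among the largest fold differences toward BAT. Of 13 tested muscle markers, 12 were higher in BAT and 1, Myl1, was not called (median 6.77). On log2(FPKM + 1) only 3 of the 13 were called higher, with a median of 2.76. Myh4 (ENSMUSG00000057003), the myosin of the fastest muscle fibres, measured 0.56, 590, 143, 10.4 and 145 CPM in BAT, against 0, 0, 0, 0 and 0 CPM in iWAT. With no count in iWAT, it was at least 10588-fold higher in BAT over the group, though its level within BAT varied from 0.56 to 590 CPM between replicates. Ckm and Pvalb were likewise at 0 in iWAT and at least 3116-fold and 1337-fold higher in BAT. Interscapular BAT lies on muscle of the back, and the part of adjoining muscle in these values was not tested. Without BAT replicate 2, Myh4 was still called (adjusted p = 0.0087), and so was Ckm (adjusted p = 0.014).

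Some of the largest differences outside muscle and position genes were in receptors, transporters and enzymes. Of the genes named next, Gmpr, Lgr6, Car14 and Mfsd2a were chosen after their values were seen. Gmpr, guanosine monophosphate reductase of purine salvage, measured 1371, 1441, 1516, 1454 and 1189 CPM in BAT, against 5.01, 4.02, 2.57, 20.1 and 18.6 CPM in iWAT. The lowest BAT library stood far above the highest iWAT library (log2 7.12 ± 0.51, adjusted p = 1.7e-12). Lgr6, a receptor for R-spondins that strengthens Wnt signals, measured 274, 320, 429, 336 and 366 CPM in BAT, against 0.0634, 0.117, 0.0552, 4.09 and 8.8 CPM in iWAT. In iWAT it was highest in replicates 4 and 5 (log2 7.01 ± 0.75, adjusted p = 3.7e-09). Bdh1, which interconverts the ketone bodies acetoacetate and beta-hydroxybutyrate, had 1658 counts in BAT and 2 in iWAT, a ratio of 990 (exact 95% interval 274 to 8179, counting error only). Cpne5, a calcium-dependent phospholipid-binding protein, averaged 14.1 ± 6.31 CPM in BAT and 0.0816 ± 0.112 CPM in iWAT (log2 7.45 ± 0.56, adjusted p = 3.2e-12). Car14, a membrane carbonic anhydrase, averaged 55.3 ± 11.8 CPM in BAT and 0.809 ± 0.748 CPM in iWAT (log2 6.08 ± 0.45, adjusted p = 3.2e-12), in contrast to Car3. Mfsd2a, a lysophospholipid transporter, averaged 131 ± 27.7 CPM in BAT and 5.76 ± 6.27 CPM in iWAT (log2 4.50 ± 0.43, adjusted p = 4.2e-10).

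On the iWAT side stood receptors for metabolites that restrain lipolysis in adipocytes, of which Hcar1, Ffar2 and Sucnr1, like Mc2r, Inhbb and Bmp3, were chosen after their values were seen. Hcar2, the receptor for beta-hydroxybutyrate and niacin, measured 1.24, 1.07, 0.241, 0.763 and 0.952 CPM in BAT, against 49.2, 45.2, 32.7, 46.3 and 33.8 CPM in iWAT. Each BAT library was far below each iWAT library (log2 -5.60 ± 0.32, adjusted p = 2.2e-14). Hcar1, the lactate receptor, averaged 4.75 ± 1.85 CPM in BAT and 111 ± 21 CPM in iWAT (log2 -4.54 ± 0.29, adjusted p = 1e-13). Ffar2, a receptor for short chain fatty acids, averaged 1.51 ± 0.663 CPM in BAT and 66.8 ± 5.81 CPM in iWAT (log2 -5.47 ± 0.31). Sucnr1, the succinate receptor, averaged 1.85 ± 0.768 CPM in BAT and 56.1 ± 12.9 CPM in iWAT (log2 -4.91 ± 0.27). A hormone receptor stood with them. Mc2r, the receptor for the pituitary hormone ACTH, averaged 0.813 ± 0.612 CPM in BAT and 22.3 ± 4.2 CPM in iWAT (log2 -4.75 ± 0.40, adjusted p = 3.6e-11). Inhbb, which encodes a subunit of activins and inhibins, averaged 0.391 ± 0.203 CPM in BAT and 16.1 ± 3.47 CPM in iWAT (log2 -5.33 ± 0.36). Bmp3, a bone morphogenetic protein, averaged 0.976 ± 0.552 CPM in BAT and 31.6 ± 6.24 CPM in iWAT (log2 -5.02 ± 0.35). Alb, the serum albumin gene, averaged 0.0516 ± 0.0623 CPM in BAT and 28.5 ± 2.74 CPM in iWAT (log2 -9.07 ± 0.43, adjusted p = 5.3e-16). Mup17, a major urinary protein gene, averaged 2.1 ± 1.15 CPM in BAT and 155 ± 105 CPM in iWAT (log2 -6.20 ± 0.66, adjusted p = 3.9e-09), but the Mup genes are a family of near-identical copies and which copy the reads came from is uncertain.

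Within gene families, BAT and iWAT held related genes in different proportions. For 26 pairs of related genes, the share of the first member in the pair's summed FPKM (a per-length unit, so that genes can be compared) was tested by a two-sided exact permutation test, which with 5 against 5 libraries cannot give a p below 0.00794, and the p-values were adjusted over the 26 pairs. The share differed in 19 pairs, with the first member higher in BAT in 16 and lower in 3, and 15 pairs had no overlap. The share of Cidea in the sum with Cidec was 80.8 ± 2.18% in BAT and 22.2 ± 13.4% in iWAT (adjusted p = 0.0138, exact, which is the smallest adjusted value here). In BAT it ran from 77.7 to 83.1%, and in iWAT from 8.34 to 36.6%. Fabp3 made up 43.9 ± 3.03% in BAT and 3.63 ± 3.84% in iWAT of its sum with Fabp4 (same adjusted p, as for the next 6 pairs). Acsl5 made up 34.1 ± 5.72% in BAT and 2.45 ± 1.24% in iWAT of its sum with Acsl1, and Plin5 29.3 ± 1.7% in BAT and 7.01 ± 3.34% in iWAT of its sum with Plin1. Among subunits of cytochrome c oxidase, Cox7a1, the heart and muscle isoform, made up 54.2 ± 1.52% in BAT and 18.9 ± 9.4% in iWAT of its sum with Cox7a2, and Cox8b 65.5 ± 2.92% in BAT and 36.2 ± 7.26% in iWAT of its sum with Cox8a. For carnitine palmitoyltransferase 1, the gate of fatty acid entry into mitochondria, the muscle isoform Cpt1b made up 55.9 ± 7.68% in BAT and 22.4 ± 12.6% in iWAT of its sum with Cpt1a. In BAT replicate 2, the library richest in muscle, the Cpt1b share was 47.2%, the lowest of the BAT libraries. This is 1 library, and the part of muscle in the pair shares was not tested. The heart-type subunit Ldhb made up 50.2 ± 1.49% in BAT and 24.4 ± 5.18% in iWAT of its sum with Ldha.

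Fewer pairs went the other way or did not differ. Got2, the mitochondrial aspartate aminotransferase, made up 13.6 ± 1.73% in BAT and 37.6 ± 17.5% in iWAT of its sum with cytosolic Got1, and both genes were higher in BAT, Got1 by more (3.09 ± 0.32 against 1.53 ± 0.15 on the log2 scale). Pfkm made up 18.1 ± 3.54% in BAT and 30.8 ± 7.11% in iWAT of its sum with Pfkl. The share of Slc25a4 in the adenine nucleotide translocases was 29.6 ± 1.08% in BAT and 28.8 ± 2.07% in iWAT (adjusted p = 0.487, exact). Unlike these pairs, Pygm, the muscle glycogen phosphorylase, had a higher share in BAT (adjusted p = 0.0138, exact). It made up 36.2 ± 25.4% in BAT and 1.08 ± 0.39% in iWAT of its sum with Pygb. The Pygm share was highest, at 71.1%, in the BAT library richest in muscle.

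**Figure D4:**
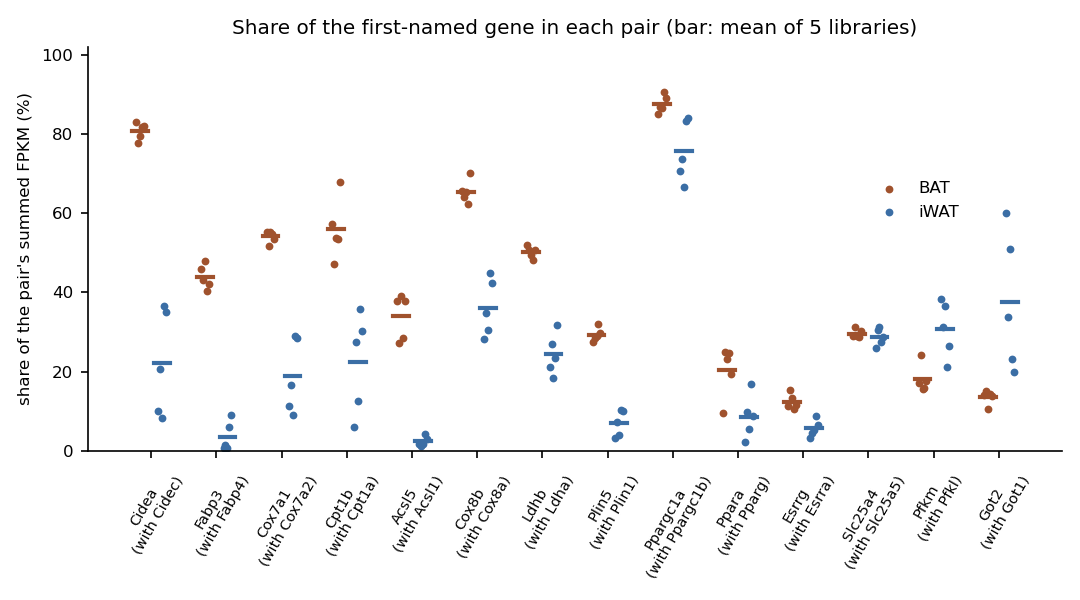
Share of the first-named gene in the summed FPKM of each pair (percent, vertical axis) in the 5 BAT (brown, left) and 5 iWAT (blue, right) libraries after 6 h, with bars at the means. The shares of Cidea, Fabp3, Cox7a1, Cpt1b, Acsl5, Cox8b, Ldhb and Plin5 do not overlap between depots, whereas that of Slc25a4 does.

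Most genes that differed between the depots at 6 h also differed at 22 °C and after 24 h, where 66.9% and 63.6% of the genes tested were called. Of the 4586 genes higher in BAT after 6 h, 3680 were higher at 22 °C (80.2% of the 6 h genes and 80.5% of the 22 °C genes) and 3691 after 24 h (80.5% and 82.9%). Of the 4744 lower ones, 3809 were lower at 22 °C (80.3% and 78.4%) and 3719 after 24 h (78.4% and 82.5%). A change in the depot difference itself was tested as an interaction, (BAT - iWAT) after 6 h minus (BAT - iWAT) at the other time, which uses the 6 h libraries on both occasions. Against 22 °C it was called for 1325 genes (9.4% of those tested), of which 476 (3.38%) moved toward BAT and 849 (6.03%) toward iWAT. Against 24 h it was called for 443 genes (3.14%), 171 toward BAT (1.21%) and 272 toward iWAT (1.93%). Both counts depended on single libraries. Against 22 °C the count was 862 without iWAT 22 °C replicate 1, 871 without its replicate 2 and 2173 without its replicate 4. Against 24 h it was 687 without BAT 6 h replicate 1, 279 without BAT 6 h replicate 2, 293 without BAT 6 h replicate 5, 249 without BAT 24 h replicate 1, 268 without iWAT 6 h replicate 1, 706 without iWAT 6 h replicate 4 and 244 without iWAT 24 h replicate 4. The lean toward iWAT against 22 °C was not stable either, since limma on log2(FPKM + 1) gave 2205 genes toward BAT and 401 toward iWAT.

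Genes of several metabolic lists had depot differences further toward iWAT after 6 h than at 22 °C, which 6.03% of all genes tested had. This was so for 10 of 18 tricarboxylic acid cycle genes (median 1.58 after 6 h and 2.16 at 22 °C), for 17 of 26 mitochondrial ribosomal protein genes (0.59 and 1.16) and for 12 of 27 fatty acid oxidation genes (1.02 and 1.60), and the opposite for 0, 0 and 1 of them. With 1 library left out they numbered 4 to 17, 12 to 24 and 5 to 22, on log2(FPKM + 1) 8, 13 and 7, and in a fit of the 20 libraries of this contrast alone 2, 12 and 6. Other lists had lower shares, with 1 of 13 mitochondrially encoded genes, 6 of 36 of complex I, 6 of 24 of complexes II to IV and cytochrome c, 6 of 16 ATP synthase subunits, 8 of 23 de novo lipogenesis genes and 6 of 18 of lipolysis. The lists were not tested against each other. For Ppargc1b, a coactivator related to Ppargc1a, BAT averaged 53.8, 53.6 and 54.5 CPM at 22 °C, after 6 h and after 24 h, and iWAT averaged 4.9, 15.5 and 22.8 CPM (interaction -1.66 ± 0.29, adjusted p = 0.00084). Its BAT level stayed within a narrow range and the iWAT level was higher in both cold groups. Ucp1 averaged 11858, 16917 and 14391 CPM in BAT and 270, 2236 and 3006 CPM in iWAT, and its interaction of -2.54 ± 0.92, adjusted p = 0.078 did not pass the test.

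Other genes parted further in the cold. Ckb averaged 31.3, 146 and 456 CPM in BAT and 14.8, 15.9 and 28.8 CPM in iWAT at 22 °C, 6 h and 24 h, and its depot difference was larger after 6 h than at 22 °C (interaction 2.12 ± 0.27, adjusted p = 3.8e-05). Bdh1 averaged 0.665, 11.1 and 28.5 CPM in BAT and stayed below 0.2 CPM in iWAT (interaction 7.14 ± 1.14, adjusted p = 0.00028). With 2 iWAT counts after 6 h, the size of the Bdh1 interaction depends on the small count that the fit adds. Cldn1, a tight junction claudin, was highest in BAT at 6 h, with 8.64, 58.9 and 18.2 CPM in BAT and 3.01, 2.63 and 2.19 CPM in iWAT (interaction 2.97 ± 0.56, adjusted p = 0.0015). Fgf9 averaged 3.1, 11.2 and 11.9 CPM in BAT and 0.429, 0.219 and 1.43 CPM in iWAT, and its difference at 6 h exceeded those at both other times (interactions 2.79 ± 0.60, adjusted p = 0.0042 against 22 °C and 2.57 ± 0.57, adjusted p = 0.011 against 24 h). The chaperone Hsp90aa1 peaked at 6 h in BAT, with 459, 1454 and 639 CPM in BAT and 249, 353 and 438 CPM in iWAT (interactions 1.16 ± 0.23, adjusted p = 0.0022 and 1.50 ± 0.23, adjusted p = 0.00064).

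Other genes changed in order, or differed at some times and not at others. Thrsp, a gene of lipogenesis that thyroid hormone and carbohydrate induce, averaged 2288, 1053 and 1471 CPM in BAT and 1018, 2213 and 1455 CPM in iWAT at 22 °C, 6 h and 24 h. It was thus higher in BAT at 22 °C (log2 1.17) and lower in BAT after 6 h (-1.07), and the interaction was -2.24 ± 0.31, adjusted p = 6.4e-05. Aacs, which activates acetoacetate for lipid synthesis and was chosen after its values were seen, averaged 291, 92.7 and 147 CPM in BAT and 181, 189 and 171 CPM in iWAT and had log2 depot differences of 0.68 at 22 °C and -1.03 after 6 h (interaction -1.71 ± 0.23, adjusted p = 6.4e-05). Nr4a3 was higher in BAT after 6 h (2.05) and lower in BAT after 24 h (-1.06). It averaged 10.6, 37.7 and 7.3 CPM in BAT and 2.36, 9.05 and 15.2 CPM in iWAT, with an interaction of 3.11 ± 0.58, adjusted p = 0.0033 against 24 h. Map1b, a microtubule protein, averaged 8.15, 24.2 and 13.5 CPM in BAT and 10.6, 6.92 and 9.24 CPM in iWAT (interactions 2.19 ± 0.26, adjusted p = 2e-05 and 1.26 ± 0.26, adjusted p = 0.0066). Map1b was called higher in BAT after 6 h, when the BAT level was highest and the iWAT level lowest of the 3 times, and at 22 °C it was not called (log2 -0.38, adjusted p = 0.068). Wdr6, a WD-repeat protein, averaged 30.3, 15.5 and 24.6 CPM in BAT and 26.6, 26.3 and 16.2 CPM in iWAT (interactions -0.95 ± 0.16, adjusted p = 0.00051 and -1.36 ± 0.16, adjusted p = 3.5e-05). Wdr6 was called lower in BAT after 6 h and higher after 24 h, and was not called at 22 °C (log2 0.18, adjusted p = 0.15).

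On the iWAT side, Slc27a1 averaged 182, 120 and 163 CPM in BAT and 588, 967 and 946 CPM in iWAT, and its depot difference was wider after 6 h than at 22 °C (interaction -1.32 ± 0.23, adjusted p = 0.00063). Cidec averaged 1057, 846 and 1274 CPM in BAT and 1552, 2317 and 1721 CPM in iWAT and was most unequal at 6 h (interactions -0.90 ± 0.16, adjusted p = 0.00065 and -1.02 ± 0.16, adjusted p = 0.00064). Hcar1 averaged 30.1, 4.75 and 5.97 CPM in BAT and 151, 111 and 114 CPM in iWAT (interaction -2.21 ± 0.35, adjusted p = 0.0003). The BAT level of Hcar1 was lower in both cold groups than at 22 °C, by a larger proportion than the iWAT level. Dbp also separated most at 6 h, with 53.5, 21.9 and 37.9 CPM in BAT, 86.2, 66.2 and 59.4 CPM in iWAT and interactions of -0.91 ± 0.17, adjusted p = 0.0014 against 22 °C and -0.95 ± 0.17, adjusted p = 0.0024 against 24 h.

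**Figure D5:**
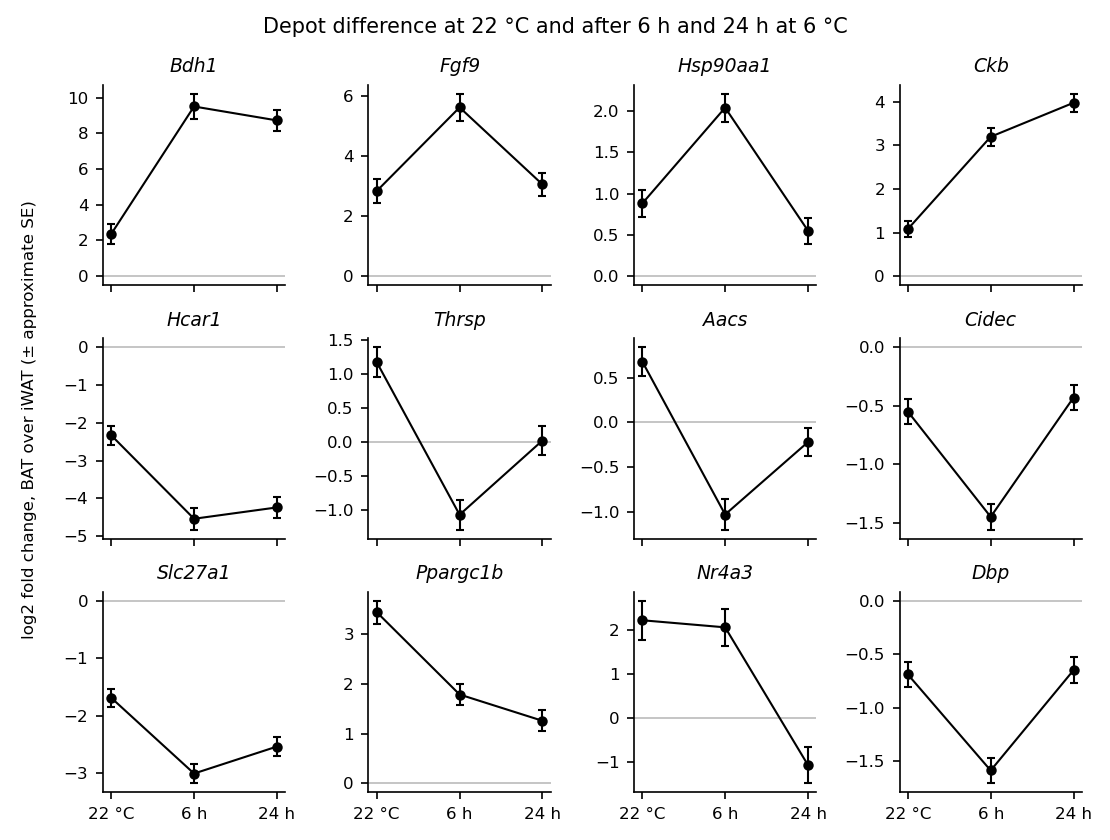
Log2 fold change of BAT over iWAT (vertical axis, ± approximate SE) at 22 °C, after 6 h and after 24 h at 6 °C for 12 genes, from 1 fit of all 30 libraries. Bdh1, Fgf9, Hsp90aa1 and Ckb rise toward BAT from 22 °C to 6 h, Thrsp and Aacs cross 0 toward iWAT, and Nr4a3 crosses 0 between 6 h and 24 h.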

How the data were processed

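Polyadenylated RNA of whole BAT and iWAT from male mice was sequenced, and the authors deposited a table of read counts per gene and of FPKM for 30 libraries. Per the submitters' processing notes, HISAT2, HTSeq and the GRCm39 build were used, and versions are not given there. Whether counting used strand is not stated, so reads of overlapping antisense genes cannot be told apart. The FPKM values are those of the authors' deposited table and served for within-pair shares and as an alternative. All 21652 features of the table entered the library totals.

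Counts of all 30 libraries were fitted in 1 model with a mean per group, by edgeR 4.0.16 (R 4.3.3) with TMM factors, filterByExpr at a minimum count of 10 and the quasi-likelihood F test, with Benjamini-Hochberg adjustment over all 14089 genes tested and a threshold of 0.05. Every adjusted p of a gene comes from this test unless limma 3.58.1 or DESeq2 1.42.0 is named. SEs are approximate, from the log2 fold change and the F statistic. CPM use TMM-scaled library sizes. Alternatives were DESeq2, other scaling factors, scaling without mitochondrially encoded genes, other filters, limma on log2(FPKM + 1) and log2(FPKM + 0.1), fits of fewer libraries, a replicate block and leaving out each library, with list medians on log2(FPKM + 1) and the alternatives of the 3 oxidative lists added after the data were seen. An FPKM pseudocount shrinks the fold of low genes. The FPKM fits also used the deposited values without TMM factors. Of the abundant genes, mt-Co1 was 0.46 and Scd1 -0.57 with either pseudocount. The median over all genes was -0.19 on log2(FPKM + 1) and -0.35 on log2(FPKM + 0.1). Shares within pairs were tested in scipy 1.17.1 by exact permutation. Replicate libraries differed by more than counting noise (chi-square per degree of freedom 24.1 to 181). Counting intervals and floors (3 counts over the group) cover counting error only.

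The gene lists, pairs and comparison were chosen with earlier results of these data known. Named genes are the 10 largest non-overlapping differences in each direction with a mean of at least 10 CPM, the 5 most abundant genes per group, up to 3 members per list in its main direction and 1 in the other with at least 5 CPM, a list of adipose genes, all Hox genes and pair members, and the 6 largest interactions each way, some of which are left out. Genes outside this rule are marked as chosen after their values were seen. A few members of the lists and pairs are not reported here.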

Additional observations from a re-analysis of the deposited data

Results flagged for a closer look

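Each named gene was checked in the 5 BAT and the 5 iWAT libraries of 6 h for a library far from its 4 companions, judged by its gap to the nearest of them as a share of the group's range (Dixon's limit 0.71). Of 296 groups checked, 24 held such a library. About 1 in 20 groups of independent normal values would pass this limit, but genes of the same library are not independent. BAT replicates 1 and 2 held 6 of the flags each, so the number is no measure of an excess. BAT replicate 1 was the highest of its group for Acaa2 (2124 CPM, others 1557 to 1655), Atp5pf (133 CPM, others 86.5 to 100), Cidea (2591 CPM, others 1931 to 2107), Ldhb (991 CPM, others 770 to 815) and Nfil3 (49.6 CPM, others 26 to 31.4). BAT replicate 1 was the lowest of its group for Hoxc4 (30.4 CPM, others 35.5 to 36.1). BAT replicate 2 was the highest of its group for Atp2a1 (295 CPM, others 1.24 to 65.1), Ckm (169 CPM, others 1.32 to 45.1), Ckmt2 (12.1 CPM, others 0 to 3.26), Myh4 (590 CPM, others 0.56 to 145), Ryr1 (50.3 CPM, others 0.28 to 12.2) and Shox2 (3.92 CPM, others 0.964 to 1.35). BAT replicate 3 was the highest of its group for Nr4a2 (53.7 CPM, others 39.8 to 43). BAT replicate 4 was the highest of its group for Plin5 (262 CPM, others 187 to 207). iWAT replicate 1 was the highest of its group for Atp5mc1 (42.2 CPM, others 21.2 to 26.9), Atp5mc3 (540 CPM, others 318 to 357), Gamt (12.8 CPM, others 5.2 to 6.87) and Hba-a1 (99.5 CPM, others 37.6 to 48.1). iWAT replicate 2 was the highest of its group for Hoxa9 (30.4 CPM, others 14.8 to 19.1). iWAT replicate 4 was the highest of its group for Scd1 (60753 CPM, others 25584 to 32358). iWAT replicate 4 was the lowest of its group for Acaa1a (91.9 CPM, others 121 to 130) and Adrb3 (307 CPM, others 372 to 397). iWAT replicate 5 was the highest of its group for Mfsd2a (16.6 CPM, others 1.71 to 5.66) and Nr4a1 (23.9 CPM, others 3.2 to 5.42).

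The depot difference itself differed between 6 h and 22 °C, by the interaction term of edgeR's quasi-likelihood test, for 35 of the named genes (values are log2, the 6 h difference minus the 22 °C difference). It lay further toward BAT after 6 h for Bdh1 (7.14), Cldn1 (2.97), Fgf9 (2.79), Map1b (2.19), Ckb (2.12), Fgf1 (1.44), Hsp90aa1 (1.16) and Col4a2 (0.74). It lay further toward iWAT for genes of mitochondria and peroxisomes, their coactivator Ppargc1b and the glycerol 3-phosphate dehydrogenases, namely Atp5mc1 (-1.69), Ppargc1b (-1.66), Letmd1 (-1.13), Gpd2 (-1.08), Acaa1b (-0.96), Atp5mc3 (-0.83), Gpd1 (-0.79), Uqcrc1 (-0.79), Suclg1 (-0.78), Ndufv1 (-0.64), Atp5f1a (-0.63), Acaa1a (-0.55), Bckdha (-0.54) and Pcca (-0.42). It also lay further toward iWAT for Hoxc9 (-4.69), Hcar2 (-2.49), Thrsp (-2.24), Hcar1 (-2.21), Aacs (-1.71), Pnpla3 (-1.48), Slc27a1 (-1.32), Car3 (-1.24), Igf1 (-1.08), Hoxa4 (-1.0), Wdr6 (-0.95), Dbp (-0.91) and Cidec (-0.90). Hoxc9 had no count in BAT after 6 h, so the size of its value depends on the small count that the fit adds. Against 24 h, 9 named genes differed. The 6 h difference was further toward BAT for Nr4a3 (3.11), Fgf9 (2.57), Hsp90aa1 (1.50) and Map1b (1.26), and further toward iWAT for Wdr6 (-1.36), Thrsp (-1.09), Cidec (-1.02), Dbp (-0.95) and Aacs (-0.81). These genes were partly chosen for these interactions, so their number is no measure of how many genes changed.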

How the results depend on the processing

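The count of genes differing between BAT and iWAT after 6 h stayed within 1.5 times of 9330 under every alternative run, and was 8910 to 9292 with 1 library left out. At 2-fold or more, limma on log2(FPKM + 1) called 1736 genes against 4056, and leaving out 1 library gave 3834 to 4215. The interaction against 22 °C called 2606 genes on log2(FPKM + 1) and 862 to 2173 with 1 library left out. The interaction against 24 h called 748 genes by DESeq2, 223 in a fit of its 20 libraries alone and 244 to 706 with 1 library left out. The number of pairs whose shares differed was 13 to 21 with 1 library left out. The BAT minus iWAT difference in the share of counts from nuclear respiratory genes and ATP synthase was 1.54 percentage points, and 2.44 when counted outside mitochondrially encoded genes. The causes were not tested.

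Whether equal replicate numbers pair the 6 h libraries is not settled by their correlations. After 6 h, 2 of 5 same-numbered pairs correlated above 0.1 (-0.0653 to 0.26), against 1 of 20 pairs with different numbers (-0.124 to 0.144). At 22 °C 0 of 5 same-numbered pairs did (-0.534 to 0.0617), and after 24 h 3 of 5 (0.0824 to 0.342). After 24 h each of the 5 BAT and 5 iWAT libraries correlated best with its own number, a hint from the data and not from the design, and after 6 h 3 and 2 did. Fits with the replicate number as a block called 9592 genes after 6 h, 2086 for the interaction against 22 °C and 912 against 24 h. With the block, 0 of 26 pair shares were called, as the sign-flip test of 5 pairs cannot give a p below 0.0625.

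List medians turned round with upper-quartile factors for regulators (-0.07), lipolysis (-0.05), clock (-0.09) and antioxidant genes (-0.00), and on log2(FPKM + 1) for regulators (-0.11), fatty acid uptake (-0.03), lipolysis (-0.31), branched-chain amino acid catabolism (-0.00), clock (-0.32), thyroid hormone handling (-0.10) and antioxidant genes (-0.27). Of 148 values for the medians of 37 lists, 31 others moved by more than the spread of a group without turning round. These were 7 with upper-quartile factors and 24 on log2(FPKM + 1). On log2(FPKM + 1) muscle markers were at 2.76, lymphocyte markers at -0.17 (-1.06 in edgeR), Schwann cell markers at -0.88 (-2.01) and epithelial markers at -0.08 (-1.18). Rps2 turned to -0.05 with either FPKM pseudocount. Scd1, not called in edgeR, ranged from -0.45 to 0.15 with 1 library left out and was 0.02 without BAT replicate 3, whereas limma called it at -0.57 with either FPKM pseudocount. Of 2958 values for 148 named genes, 2937 kept their direction and call. Many of these genes were named for their large differences, so this number is no measure of how stable other genes are. Counts near 0 in 1 depot limit the precision of the largest folds.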

Other observations

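Further members of the lists gave values not described above, all chosen after their values were seen. Among thermogenic genes, Bmp8b, a growth factor of the BMP family that brown adipocytes secrete, averaged 4.09 ± 2.12 CPM in BAT and 0.0298 ± 0.00419 CPM in iWAT (log2 6.96 ± 0.57). The iWAT level of Bmp8b is near the limit of detection there (3 counts over the group, 0.0176 CPM), so the size of its fold is imprecise. Kcnk3, a potassium channel that sets the resting potential, averaged 954 ± 119 CPM in BAT and 177 ± 114 CPM in iWAT (log2 2.43 ± 0.29). Letmd1, a mitochondrial inner membrane protein needed for brown fat function in mice, averaged 966 ± 61 CPM in BAT and 125 ± 67.7 CPM in iWAT (log2 2.96 ± 0.25). Gk, glycerol kinase, which lets a fat cell reuse glycerol from lipolysis, averaged 2218 ± 96.3 CPM in BAT and 362 ± 267 CPM in iWAT (log2 2.62 ± 0.50). Pank1, a pantothenate kinase at the start of coenzyme A synthesis, averaged 1039 ± 52.7 CPM in BAT and 112 ± 86.8 CPM in iWAT (log2 3.21 ± 0.41). The libraries of the depots did not overlap for any of these 5 genes, and BAT lay wholly above iWAT for 22.9% of all genes tested. Alpl, an alkaline phosphatase that has been placed in creatine cycling, averaged 46.6 ± 9.93 CPM in BAT and 3.92 ± 2.07 CPM in iWAT (log2 3.58 ± 0.26), and its libraries did not overlap either.

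Other genes had higher levels in iWAT. Igf1, insulin-like growth factor 1, averaged 19.7 ± 5.64 CPM in BAT and 252 ± 58.6 CPM in iWAT (log2 -3.68 ± 0.22). Fgf10, a fibroblast growth factor of adipose progenitors, averaged 4.87 ± 1.56 CPM in BAT and 85 ± 15.6 CPM in iWAT (log2 -4.12 ± 0.24). Apoe, the gene of apolipoprotein E, averaged 487 ± 99.3 CPM in BAT and 2246 ± 494 CPM in iWAT (log2 -2.20 ± 0.17). Macrophage and fibroblast markers were lower in BAT as well, and their part in these differences was not tested. Fgf1, a fibroblast growth factor known for metabolic actions in fat, went the other way at 50 ± 20.2 CPM in BAT and 14.3 ± 4.61 CPM in iWAT (log2 1.80 ± 0.28).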
